A study of Caenorhabditis elegans with 2 samples.

Results

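The mitochondrial ribosomal protein genes of Caenorhabditis elegans were taken as the nuclear protein-coding genes whose names begin with mrpl- (large subunit) or mrps- (small subunit) in the WBcel235 annotation of Ensembl release 115. They number 70 of 19973 nuclear protein-coding genes, 41 of the large and 29 of the small subunit, and the other 19903 genes served for comparison. The assay was chromatin immunoprecipitation with sequencing (ChIP-seq) of ZNF-207 (B0035.1), which fragments chromatin by sonication, recovers the pieces that carry a chosen protein and sequences them. The animals were whole hermaphrodite young adults of strain xtl1186, which carries ZNF-207 fused at its C-terminus to GFP-FLAG, collected 50 hours after release from L1 arrest brought about by bleaching and starvation, and an anti-GFP antibody was used. There was 1 group with 2 biological replicates, a control was not analysed here, and chromatin of all tissues was pooled, so that a strong signal in few cells and a weak signal in many cannot be told apart. The lists hold no read counts, and the depth of each library is unknown.

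Mitochondria translate the few proteins encoded by their own genome on ribosomes that descend from those of bacteria. In animals all protein parts of that ribosome are encoded in the nucleus, made in the cytosol and imported into the organelle, and the proteins it makes are core subunits of the respiratory chain and ATP synthase. Proteins named with a u (universal) or b (bacterial) have counterparts in bacteria, and those named with an m are particular to mitochondrial ribosomes. The human counterpart of ZNF-207, also called BuGZ, is a zinc finger protein that binds the spindle checkpoint protein BUB3.

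A gene was counted as having a summit where a peak's point of highest signal lay between 500 bp upstream and 200 bp downstream of the gene's outermost annotated start, and the strongest such summit was kept. Rank 1 is the peak of highest deposited signal within a list. The sequences of 8 members with a summit within 200 bp of their start are shown, because they place the summit relative to the start of the gene. Each was read from the WBcel235 (ce11) genome 5′ to 3′ along the gene, with the bases before the annotated start in lower case and the bases of the gene in capitals. Where the summit lay upstream, the run begins at the summit base and extends 20 bases into the gene; where it lay downstream, the run begins 20 bases before the gene and ends at the summit base. The runs are mrpl-28 (chrII:155990-156069, minus strand), mrps-14 (chrII:10242480-10242510, minus strand), mrpl-41 (chrII:288919-288975, plus strand), mrps-2 (chrV:8465666-8465732, plus strand), mrps-33 (chrIV:8739943-8740046, minus strand), mrps-23 (chrIII:9523653-9523845, minus strand), mrps-18.C (chrII:6736181-6736222, plus strand) and mrps-24 (chrIV:7709853-7710064, plus strand).
mrpl-28: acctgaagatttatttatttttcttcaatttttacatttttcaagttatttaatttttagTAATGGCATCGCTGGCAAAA
mrps-14: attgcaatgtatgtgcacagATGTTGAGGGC
mrpl-41: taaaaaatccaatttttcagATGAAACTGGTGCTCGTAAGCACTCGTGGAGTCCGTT
mrps-2: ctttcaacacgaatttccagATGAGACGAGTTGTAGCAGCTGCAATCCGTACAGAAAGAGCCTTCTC
mrps-33: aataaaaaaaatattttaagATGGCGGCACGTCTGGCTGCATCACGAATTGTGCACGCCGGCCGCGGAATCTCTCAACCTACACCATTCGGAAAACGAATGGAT
mrps-23: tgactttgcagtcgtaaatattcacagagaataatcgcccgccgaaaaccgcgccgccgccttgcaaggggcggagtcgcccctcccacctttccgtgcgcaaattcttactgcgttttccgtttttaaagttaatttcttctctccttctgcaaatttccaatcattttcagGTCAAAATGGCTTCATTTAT
mrps-18.C: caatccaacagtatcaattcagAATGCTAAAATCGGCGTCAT
mrps-24: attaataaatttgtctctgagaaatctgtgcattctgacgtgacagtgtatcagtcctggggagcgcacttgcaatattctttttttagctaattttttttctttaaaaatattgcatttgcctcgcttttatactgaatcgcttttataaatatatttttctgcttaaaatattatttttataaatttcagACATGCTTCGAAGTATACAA
In these 8 runs, which are a selection, the last lower-case bases before the capitals are ag, the acceptor dinucleotide of splicing; the start of mrpl-1, whose run was read but is not shown, is not preceded by it.

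None of the 70 members had a summit of the authors' thresholded list, of 750 peaks, in its start window. A count of 0 of 70 allows a share of up to 4.29%, for counting error only, and 327 of all 19973 genes (1.64%) had one, a share that would give 1.15 genes in a list of 70. With the window widened to 1000 bp upstream, 2 members (2.86%) and 2.17% of other genes had one. Counts of 0 and 2 members are too few to place the members' share above or below that of other genes. In the longer list called on both replicates together (the pooled list), which holds 30000 peaks with background among them, 42 of 70 members had a summit (60%, Wilson 95% interval 48.3 to 70.7%), beside 5186 of the 19903 other genes (26.1%) and 26.2% of all genes. Among its 3000 strongest peaks, 10 members had one (14.3%, 7.95 to 24.3%), against 5.25% of other genes and 5.28% of all genes. The mitochondrial ribosomal protein genes thus carried summits more often than other genes in the broad list and none in the short one. With 1 group no test of these shares was made, and the intervals cover the counting of genes only.

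The difference was seen in the middle of the list, and at its top the members were too few to tell. Within the 1500 strongest pooled peaks 2 members (2.86%) and 609 other genes (3.06%) had a summit, so the shares were near each other. Going on to rank 3000 added 8 members, to rank 6000 a further 9 and to rank 12000 a further 11. By rank 6000 the share was 27.1% of members and 8.85% of other genes, and by rank 12000 it was 42.9% of members and 13.9% of other genes. Where a gene had a pooled summit, its median rank was 6710 for members and 10866.5 for other genes, and the median signal was 36.3 for members and 29.8 for other genes. The best member, mrps-35, stood at rank 837 with a signal of 84.6, just outside the weakest thresholded peak, which had rank 750 and a signal of 88.6; the next members outside were mrpl-28 and mrps-12, and no member stood inside. By the deposited −log10 q-value, 13 of 70 members (18.6%) had a pooled summit of at least 1, where 6.57% of all genes did, and 7 members (10%) had one of at least 2, where 3.97% of all genes did. At that limit of 2, replicate 1 alone held 8 members (11.4%, against 4.27% of all genes) and replicate 2 alone held 0 of 70, against 2.31% of all genes.

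**Figure D1:**
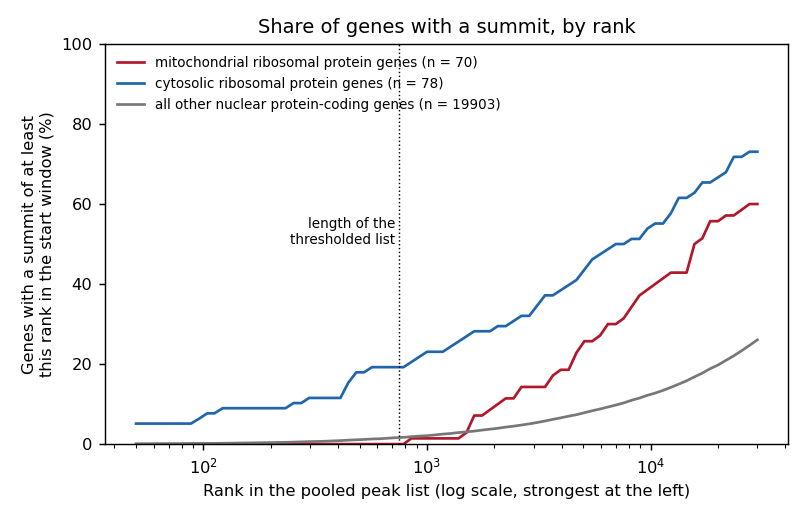
Share of genes with a pooled summit of at least a given rank in the start window (vertical axis, %) against that rank (horizontal axis, log scale), for 70 mitochondrial ribosomal protein genes, 78 cytosolic ribosomal protein genes and 19903 other genes; the dotted line marks rank 750. The members' curve stays at 0 to the dotted line, meets that of other genes near rank 1500 and ends at 60%, between the cytosolic family at 73.1% and other genes at 26.1%.

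Of the members with the best pooled ranks, the small subunit gene mrps-35, which encodes the mitochondrion-specific protein mS35, led. Its summit at chrV:18981198-18981198, in a peak at chrV:18980968-18981427, lay 108 bp upstream of its start. The signal there was 84.6 in the pooled list, 58.8 in replicate 1 (rank 742) and 22.5 in replicate 2 (rank 3498), and signals are scaled within each list and can be set side by side only as ranks. It was high in replicate 1 and lower in the order of replicate 2, and it was the 1 member within the 750 strongest peaks of either replicate.

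Next came mrpl-28, the counterpart of bacterial bL28, with pooled rank 1495 and a signal of 66.6, 60 bp upstream; it ranked 2372 in replicate 1 and 1658 in replicate 2. For mrps-14, which encodes uS14m of the small subunit, the pooled rank was 1548 with a signal of 65.5, 10 bp inside the gene, and the ranks were 1555 in replicate 1 and 2308 in replicate 2. Both genes stayed within the 3000 strongest peaks of each replicate, and no other member did. The gene of uS12m, mrps-12, whose bacterial counterpart lies at the decoding centre, had pooled rank 1518 and a signal of 66.1 at 462 bp upstream, with rank 1295 in replicate 1 and no summit in replicate 2. That summit lay close to the 500 bp limit of the window, and the end of num-1, a gene on the same strand, lies 460 bp before the start of mrps-12.

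The large subunit genes mrpl-32 (bL32m) and mrpl-41 (mL41) followed. For mrpl-32 the pooled rank was 1612 with a signal of 64.6 at 319 bp upstream, and the ranks were 1591 in replicate 1 and 3735 in replicate 2. For mrpl-41 the pooled rank was 1783 with a signal of 61.8 at 36 bp downstream, and the ranks were 2100 in replicate 1 and 3737 in replicate 2. These 2 genes thus stood at like places in both lists, lower in replicate 2. For mrps-6 (bS6m) the pooled rank was 1998, the signal 58.8 and the distance 381 bp upstream, and the ranks were 1642 in replicate 1 and 8541 in replicate 2. The nearest start to that summit was that of rpn-8, a proteasome subunit gene, at 164 bp. For mrps-2 (uS2m) the pooled rank was 2209 with a signal of 56.4 at 46 bp downstream, and the ranks were 1983 in replicate 1 and 6468 in replicate 2.

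In mrpl-17 (bL17m) the pooled rank was 2481 with a signal of 53.7 at 48 bp upstream, at a summit shared with the window of vbh-1, and the ranks were 3462 in replicate 1 and 6894 in replicate 2. In mrps-33 (mS33) the order of the replicates was the reverse: the pooled rank was 2613 with a signal of 52.6 at 83 bp downstream, and the ranks were 8179 in replicate 1 and 1745 in replicate 2. The next 5 genes lay between ranks 3515 and 4446. They were mrps-23 (mS23, rank 3515, signal 46.7), mrps-16 (bS16m, rank 3583, signal 46.4), mrps-18.C (an S18 protein, rank 3871, signal 45.1), mrpl-19 (bL19m, rank 4358, signal 43.0) and mrps-7 (uS7m, rank 4446, signal 42.7). In replicates 1 and 2, in that order, the ranks were 3603 and 5869 for mrps-23, 5867 and 6862 for mrps-16, 12005 and 5713 for mrps-18.C, and 5548 and 12557 for mrpl-19. Of the 5, only mrps-18.C had the better rank in replicate 2 among those with a summit in both, and mrps-7 had rank 1782 in replicate 2 and no summit in replicate 1, and its summit lay nearer to the start of Y57G11C.3, at 190 bp, than to its own, at 281 bp.

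**Figure D2:**
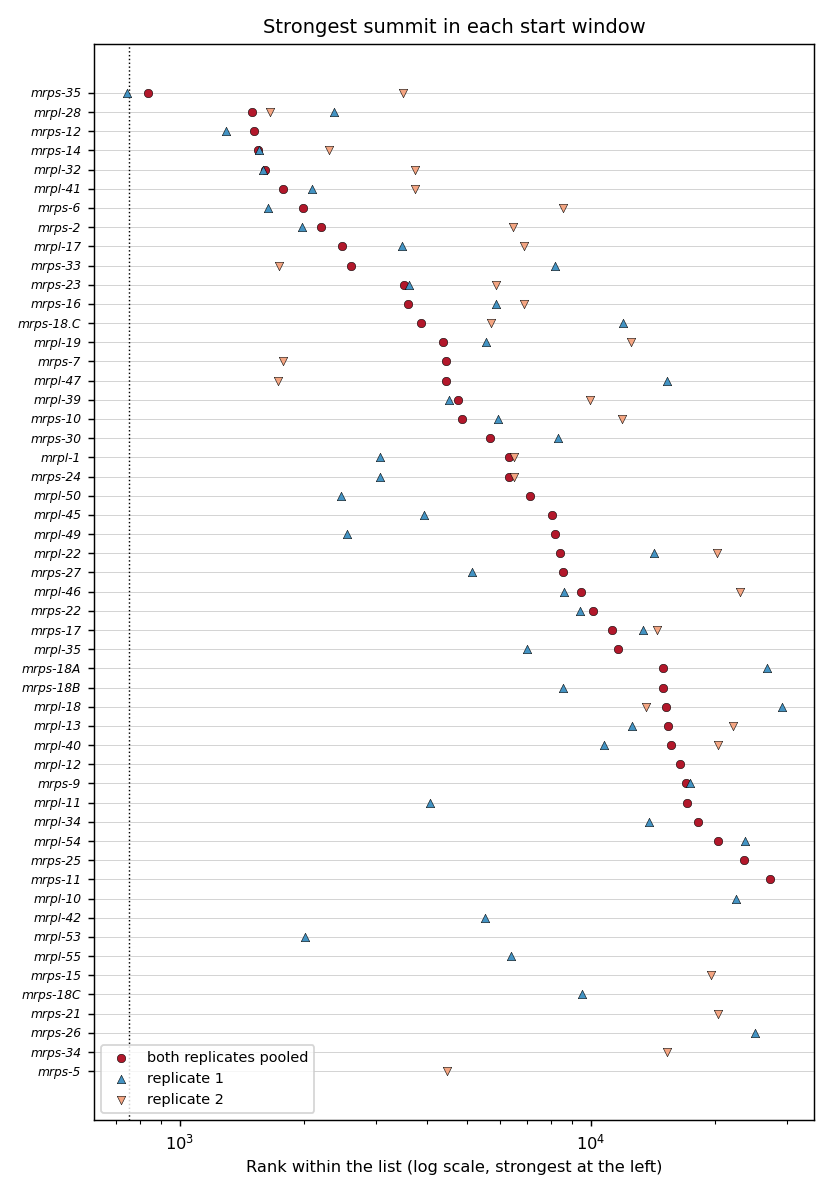
Rank within each list (horizontal axis, log scale) of the strongest summit of the 52 members with a summit in any list, 1 gene a line, for the pooled list and each replicate; the dotted line marks rank 750. The pooled marks begin at rank 837 for mrps-35, and replicate 2 marks of most genes with both lie to the right of their replicate 1 marks. Other genes were not counted in this way.

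The weakest pooled summits were those of mrps-25 (rank 23625) and mrps-11 (rank 27217), genes named after their values were seen, and neither had a summit in a replicate list. No pooled summit was found for 28 members. Those of the large subunit were mrpl-2, mrpl-4, mrpl-9, mrpl-10, mrpl-15, mrpl-16, mrpl-20, mrpl-21, mrpl-23, mrpl-24, mrpl-30, mrpl-36, mrpl-37, mrpl-38, mrpl-42, mrpl-44, mrpl-48, mrpl-51, mrpl-53 and mrpl-55. Those of the small subunit were mrps-5, mrps-15, mrps-18C, mrps-21, mrps-26, mrps-28, mrps-31 and mrps-34. Of the 28, 10 had a summit in 1 replicate list (6 in replicate 1 and 4 in replicate 2), a count not made for other genes. The strongest of the 10, singled out after their values were seen, were mrpl-53 at rank 2014 of replicate 1 and mrps-5 at rank 4462 of replicate 2. The other 18 had none in any list, which at an unknown depth says that none was listed and not that ZNF-207 was absent. A single summit served a pair of members: mrpl-1 (an L1 protein) and mrps-24 (uS3m), on opposite strands, shared a summit of pooled rank 6308. The nearest start to that summit was that of neither member but of emc-6, at 117 bp.

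Small subunit genes had a pooled summit more often than large subunit genes, in 21 of 29 (72.4%, 54.3 to 85.3%) and 21 of 41 (51.2%, 36.5 to 65.7%), and these intervals overlap. Within the 3000 strongest peaks there were 6 small subunit genes (20.7%) and 4 large subunit genes (9.76%), beside 5.28% of all genes. In both replicates there were 11 small subunit genes (37.9%) and 13 large subunit genes (31.7%), beside 13.2% of all genes. The RefSeq product of mrps-18C is uL3m, a large subunit protein, and moving it by product changed the shares to 75% of small subunit and 50% of large subunit genes. By RefSeq product names, 19 of 31 members shared with bacteria and 12 of 19 members specific to mitochondria had a pooled summit (61.3% and 63.2%). So did 11 of the 20 whose product name gives no such letter (55%), beside 26.2% of all genes. The 3000 strongest peaks held 7 of the genes shared with bacteria (22.6%) and 3 of the mitochondrion-specific genes (15.8%), beside 5.28% of all genes. They held 0 of the 20 others, too few genes to set apart from that 5.28%. The shares with a pooled summit thus lay close together, and no difference between these classes was tested.

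In the replicate lists taken singly, 44 of 70 members (62.9%) had a summit in replicate 1, where 26.0% of all genes did, and 29 (41.4%) had one in replicate 2, where 21.6% of all genes did. Replicate 2 has the shorter list, with 25036 peaks against 30000. A summit in both replicates was found for 24 members (34.3%), against 13.1% of other genes and 13.2% of all genes. Of those 24, 19 ranked better in replicate 1 and 5 in replicate 2. This split was counted for members only, so whether it is particular to them is not known. Over these 24 members, which share both libraries, Spearman's rho of the ranks was 0.51, beside 0.56 over 2609 other genes, given as a description. The largest ratio of ranks was that of mrpl-47 (uL29m), 8.85, with rank 15354 in replicate 1 and 1734 in replicate 2, pooled rank 4448 and a signal of 42.7 at 78 bp downstream. It was 5.20 for mrps-6, 4.71 for mrps-35, 4.69 for mrps-33 and 3.26 for mrps-2.

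In 23 of the 24 members (95.8%) the replicate summits lay within 200 bp of each other, against 80.4% of other genes. The median gap was 81 bp in members and 76 bp in other genes. Both summits had to lie in the same start window, which by itself brings them near each other. The 3000 strongest peaks held 11 members in replicate 1 (15.7%, against 5.21% of other genes) and 5 members in replicate 2 (7.14%, against 4.39% of other genes). The difference from other genes at that depth of list was thus smaller in replicate 2 alone. All 24 members with a summit in both replicates also had a pooled summit; 14 further pooled members had one in replicate 1 only, 1 (mrps-7) in replicate 2 only, and 3 (mrpl-12, mrps-25 and mrps-11) in neither.

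Every summit counted for a gene had to lie in its start window, which by itself places it near the gene start. Counting upstream as negative, the median pooled summit lay at -98 bp in members and at -138 bp in other genes, and 28 of 42 (66.7%) lay within 200 bp of the start, against 60.4% in other genes. In 14 of the 42 the summit lay inside the gene, as in the runs shown for mrps-14, mrpl-41, mrps-2 and mrps-33. Counting all pooled summits, the start window held 0.937 summits per kb per member gene and the flanks out to 2000 bp on either side held 0.515, a ratio of 1.82. For other genes the values were 0.439 in the window and 0.302 in the flanks, a ratio of 1.45. Both the window and the flanks of members were thus denser in summits than those of other genes. The median summit of cytosolic ribosomal protein genes lay farther out, at -286 bp.

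**Figure D3:**
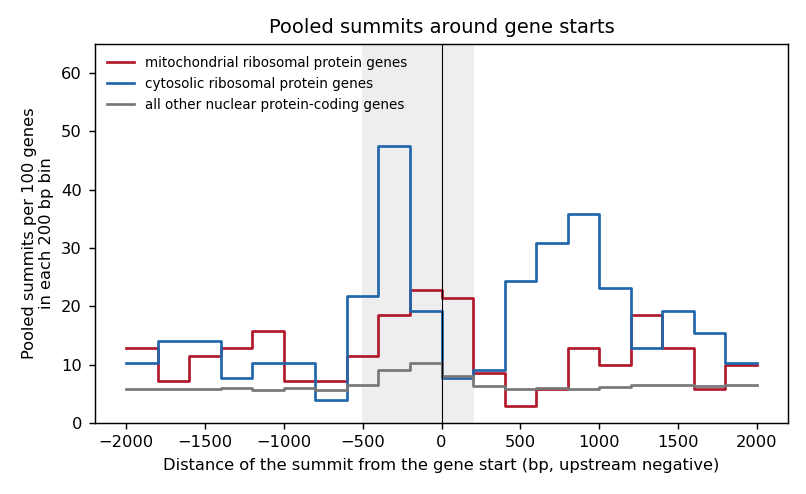
Pooled summits per 100 genes (vertical axis) in 200 bp bins of distance from the gene start (horizontal axis, bp, upstream negative), for members, cytosolic ribosomal protein genes and all other genes; the grey band is the start window. The members' line is highest in the bins directly before and after the start, at 22.9 and 21.4 summits per 100 genes.

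Many members lie close to another gene. A start of a gene on the opposite strand lay within 1000 bp upstream of 26 members (37.1%), against 17.7% of other genes, and a gene on the same strand ended within 500 bp upstream of 28 members (40%), against 19.7% of other genes. With an opposite start near, 18 of 26 members (69.2%) had a pooled summit, against 34.6% of other genes so placed. With a same-strand gene near, 16 of 28 (57.1%) did, against 39.9% of other genes, and with neither, 8 of 16 (50%) did, against 19.4% of other genes. In each of these positions the members' share of pooled summits was the higher. Among the 3000 strongest peaks, 2 of 26 members with an opposite start near had a summit (7.69%), too few to set apart from the 9.93% of other genes. The members' share there was higher with a same-strand gene near, in 6 of 28 (21.4%) against 8.48%. With neither, it was 2 of 16 (12.5%) against 2.93%, also a small count. For 32 of the 42 members with a pooled summit (76.2%) their own start was the nearest start of a protein-coding gene to it, against 89.2% in other genes, and for the other 10 members the start of a neighbour was nearer. No tRNA, snoRNA or snRNA gene lay within 200 bp of the strongest summit of any of the 42, against 93 of the other genes with a summit (1.79%).

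C. elegans transcribes many genes in operons, in which genes on 1 strand follow each other closely, are transcribed from the start of the first and are separated by trans-splicing. Operons were not annotated in the files, and runs of same-strand genes with gaps of at most 500 bp were used as a description of position only. Of the 28 members that follow another gene in such a run, 16 had a summit at their own start and 15 had one at the start of the run's first gene: 9 at both, 7 at their own only, 6 at the first gene's only and 6 at neither. Of other genes so placed, 39.9% had a pooled summit at their own start, and of all genes 26.2% had one. The split by first gene was counted for members only, so it has no share of other genes beside it. Of the 10 members within the 3000 strongest peaks, 6 were of this kind: mrps-12, mrps-14, mrpl-32, mrpl-41, mrps-2 and mrps-33. These 6 were picked for a strong summit at their own start, which by itself makes a weaker one at the first gene likely. The first genes before mrps-12 (num-1), mrpl-41 (misc-1) and mrps-2 (natc-1) had no pooled summit. Those before mrps-14 (nrde-2, rank 19946) and mrps-33 (F21D5.7, rank 4413) had weaker ones. Before mrpl-32, the first gene rpn-3, a proteasome subunit gene, had a thresholded summit of rank 268. The other run whose first gene was in the thresholded list was that of mrps-21, where F29B9.11 had rank 280. Among the 9 members with a summit at both starts, the first gene ranked better in 3. These were mrpl-32, mrpl-54 (rank 20434, first gene clsp-1 at 1152) and mrps-11 (rank 27217, first gene W04D2.4 at 3081). The gene mrpl-4, 105 bp after the end of mrps-2, had no summit.

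The bases directly before the annotated start were AG in 54 of 70 members (77.1%), in 66 of 78 cytosolic ribosomal protein genes (84.6%) and in 27.4% of other genes. The longer word TTTCAG stood there in 25 members (35.7%), in 38 cytosolic genes (48.7%) and in 12.2% of other genes. An AG at that place is what an annotated start at a trans-splice site looks like, in which case the first transcribed base lies farther upstream than the start used here. Among genes with AG, 34 of 54 members (63.0%) had a pooled summit, against 39.7% of other genes; without it, 8 of 16 members (50%) did, against 20.9% of other genes. All 10 members within the 3000 strongest peaks had AG, 18.5% of the 54, against 8.93% of other genes with AG. Without AG, 0 of 16 members were within the 3000 strongest peaks, against 3.86% of other genes without it. The members' share was thus the higher with either kind of start in the whole pooled list. Among the 3000 strongest peaks it was the higher with AG. A count of 0 among only 16 genes without AG cannot tell a share below 3.86% from one above it.

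**Figure D4:**
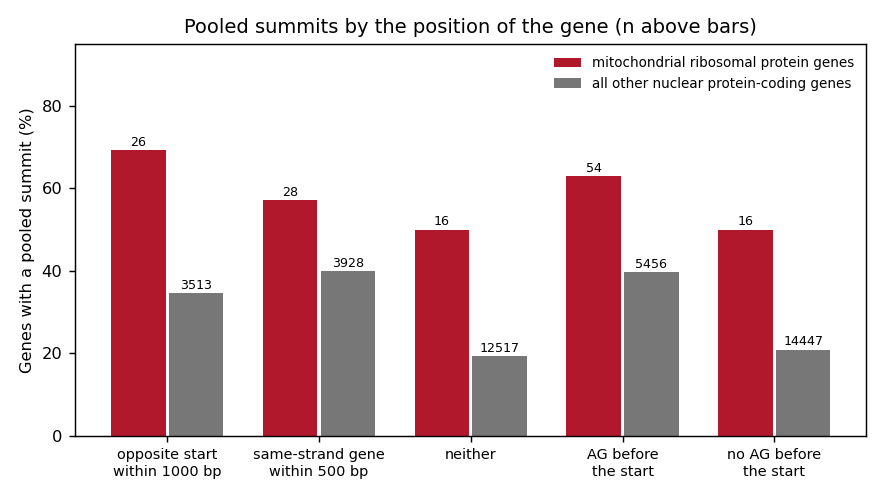
Share of genes with a pooled summit (vertical axis, %) by what lies upstream of the gene and by the bases before its start, for members and all other genes, with the number of genes above each bar; a gene can fall under more than 1 position. The members' bars, from 50% to 69.2%, are the higher in all 5 pairs.

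A set of 6 short words was sought on both strands in a window of 50 bases on either side of the strongest pooled summits, with shares of the summits of other genes for comparison. The 41 distinct summits of members held CACGTG, the E-box core, in 1 case, at mrpl-13, against 2.58% of 4658 summits of other genes. They held none of CTGCGTCTC (2.19% of other genes' summits), TGACGTCA (0.558%), GCGCGAAA (0.859%), CCGGAAG (0.558%) and GATAAG (3.93%). In the 701 bases of the whole start window, GATAAG, the GATA factor word, stood in 12 of 70 members (17.1%), against 29.2% of other genes, and in 3 of the 42 members with a pooled summit and 9 of the 28 without. That word was singled out after its values were seen. Of the other words in the start window, CACGTG stood in 10 of 70 members and 2395 of 19903 other genes, CTGCGTCTC in 2.86% of members and 4.77% of other genes, and TGACGTCA in 1.43% of members and 3.56% of other genes. GCGCGAAA stood in 2.86% of members and 2.41% of other genes, and CCGGAAG in 0 of 70 members and 4.30% of other genes. These are matches of letters only, and a word that is missing from a window says only that.

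Of the other genes of mitochondrial translation, 11 of 14 listed mitochondrial aminoacyl-tRNA synthetases and 5 of 9 listed translation factors had their symbol in the annotation. A pooled summit was found for 8 of the 11 synthetases and 3 of the 5 factors, and a thresholded summit for 1 of each, where 26.2% of all genes had a pooled and 1.64% a thresholded one. The synthetase ears-2, which charges glutamate tRNA, had rank 376 with a signal of 114.0 at 4 bp downstream, and ranks of 392 in replicate 1 and 558 in replicate 2. The elongation factor gene gfm-1 had rank 711 with a signal of 90.7 at 84 bp upstream, and ranks of 487 in replicate 1 and 520 in replicate 2. Both stood above every mitochondrial ribosomal protein gene in all 3 lists. The next synthetases were yars-2 (rank 4128) and aars-1 (rank 10481), and the next factors were mrrf-1 (ribosome recycling, rank 3180) and tufm-2 (rank 5570).

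The 78 cytosolic ribosomal protein genes (rpl- and rps-) were the family most alike in function. A thresholded summit was found for 0 of 70 members and 15 of 78 cytosolic genes (19.2%), and a pooled summit for 60% of members and 73.1% of cytosolic genes. Within the 3000 strongest peaks the shares were 14.3% of members and 32.1% of cytosolic genes, and in both replicates they were 34.3% of members and 52.6% of cytosolic genes. The best cytosolic genes, rpl-3 (rank 18, signal 583), rpl-20 (rank 27, signal 347) and rpl-35 (rank 37, signal 310), stood far above mrps-35 at rank 837. An opposite start within 1000 bp was found in 37.1% of members and 60.3% of cytosolic genes, and a same-strand gene within 500 bp in 40% of members and 10.3% of cytosolic genes. By these counts the mitochondrial family had the weaker summits and more often followed a gene on its own strand; the difference was not tested.

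By chromosome, 22 members lie on III, 15 on I, 12 on II, 11 on IV and 10 on V, and none on X. Leaving X out of the comparison gave 26.3% of other autosomal genes with a pooled summit and 1.71% with a thresholded one. RefSeq gives an mrpl- name to 1 further gene, mrpl-58 (mL62), which Ensembl lists as R02F2.9. It had pooled rank 7291 and ranks of 7053 in replicate 1 and 12837 in replicate 2.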

How the data were processed

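The ce11 narrowPeak lists of both replicates, of the replicates pooled, and the thresholded list were used. Per the deposited file listing, the unthresholded lists hold background as well as peaks and feed the irreproducible discovery rate (IDR) procedure. That procedure keeps peaks that rank high in both replicates alike. Here the weakest thresholded peak had pooled rank 750, and the gene counts of this list matched those of the 750 strongest pooled peaks. Aligner and peak caller names were not given in the sources used here. Each deposited peak signal (column 7) has its own scale in every list, and ranks were used between lists. The deposited −log10 q-value (column 9) served as a descriptive cut, and the deposited offset (column 10) gave the summit.

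Genes and starts came from Ensembl release 115, and sequences and products from RefSeq, both for WBcel235. All peak and gene ends lay within the chromosome lengths of that genome. Assignment of summits was tested on simulated peaks. Python 3.11.15, pandas 2.3.3, numpy 2.4.6 and scipy 1.17.1 were used. The thresholded ce10 list served only for its number of peaks, 1083.

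The members and gene lists were chosen with earlier results of these data known. Genes were named by this rule: members with a thresholded summit, the 15 with the best pooled rank, the 3 nearest to the weakest thresholded rank on each side, the 5 with the largest ratio of replicate ranks, members with no pooled summit without values, related genes with a thresholded summit and the 3 best of each list, and the 3 best cytosolic genes. Any other gene was named after its values were seen, as an example or as a neighbour of a member. Depth is unknown. Wilson intervals are at the 95% level, for counts of genes that share the same libraries. With 1 group no test between groups was possible. Alternatives were the width of the window, the start used, the rank limit, the list, leaving out each replicate, gene names and the comparison genes.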

Additional observations from a re-analysis of the deposited data

How the results depend on the processing

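Of 62 values, 46 moved by less than 1.5 times. With a start window of 200 bp upstream to 100 bp downstream, 27 members and 2786 other genes had a pooled summit, 543 other genes had 1 within the 3000 strongest peaks, 14 members and 1022 other genes had a summit in both replicates, and 156 other genes had a thresholded summit. With 1000 bp upstream, 2 members had a thresholded summit (mrps-21 and mrpl-23, 995 and 946 bp upstream), 2.86% against 2.17% of other genes. That count is too small to order the shares. The summit counted for mrps-21 lay 311 bp from the start of F29B9.11, nearer than to the start of mrps-21. At that width, 3922 other genes had a summit in both replicates. The stronger 375 thresholded peaks gave 156 other genes. As many pooled peaks as the thresholded ce10 list holds gave 1 member (mrps-35), an alternative chosen after seeing the data. That is 1.43% against 2.29% of other genes, too few to tell apart. A rank limit of 1500 gave 2 members and 609 other genes, and one of 6000 gave 19 members and 1762 other genes. Leaving out each replicate put the other replicate's own list in place of the pooled list. The strongest peaks of that list, as many as the thresholded list holds, stood in for the thresholded list. Replicate 2 alone gave 0 members among those strongest peaks, against 1.40% of other genes, too few to tell apart. It gave 29 in its whole list (41.4%, against 21.6%) and 5 within its 3000 strongest peaks (7.14%, against 4.39%). Replicate 1 alone gave 1 member (mrps-35, 1.43%, against 1.59%) among its strongest peaks, again too few to tell apart. It gave 44 in its whole list (62.9%, against 25.9%) and 11 within its 3000 strongest peaks (15.7%, against 5.21%). These are single-replicate counts and not thresholded or pooled summits. The members' share over that of other genes was 0 to 1.32 for a thresholded summit and 1.92 to 2.76 for a pooled summit. It was 2.23 to 3.89 for both replicates. For the strongest peaks it was 0.934 to 3.67, the lowest at a limit of 1500. The ranges for thresholded summits, pooled summits and strongest peaks include the single-replicate counts, and the value of 1.92 is that of replicate 2 alone. No paired analysis was possible because there is 1 group. Depth is unknown.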
